A study of Homo sapiens with 11 samples.

Results

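The mRNAs of the proteasome were examined for RNA recovered with RPS19, which is part of the small ribosomal subunit, and with its substitutions R101H and R62W, which are known from Diamond-Blackfan anemia. The assay was eCLIP, in which RNA is crosslinked to protein in cells, trimmed with RNase, precipitated with an antibody to the protein and sequenced beside an unprecipitated input of matched size. A window is a short stretch of an annotated transcript that the authors listed as enriched in the immunoprecipitate (IP) over the input. A window belonged to the set when any gene named for it had a symbol that starts with PSMA, PSMB, PSMC, PSMD or PSME. This held for 437 of the 122708 windows listed in any group, in 40 of 8697 genes. They comprised 317 of 93331 windows in the R101H list, 338 of 86567 in the R62W list and 56 of 15402 in the WT list.

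The labels give 2 IP samples of HEK293T cells, a human embryonic kidney line, transfected with a plasmid for V5-tagged RPS19 R101H. They give 3 samples with V5-tagged R62W and 3 with the V5-tagged WT protein, all precipitated with a V5 antibody. The 3 size-matched inputs came from cells without a plasmid, and they are the only inputs of the study. The tagged protein was overexpressed, the labels name no deletion of the cells' own RPS19, and they do not say whether replicates are independent cultures; the p-values reflect the scatter among these samples, which may be technical. Each list holds enriched windows only and gives no level of an mRNA, so marker genes of HEK293T cells could not be checked, and less RNA of a transcript cannot be told apart from less RNA bound per transcript. The coding sequence of RPS19, which the plasmids carry, was listed in each group, with a median log2 odds ratio of 4.84 over 7 windows in R101H, 5.05 over 7 in R62W and 5.20 over 6 in WT. Since the inputs lack the plasmid, more RPS19 RNA in the cells cannot be told apart from more RNA bound in these values.

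The proteasome is the protease complex that degrades proteins tagged with ubiquitin. Its 20S core is a barrel of outer rings of alpha subunits (PSMA genes) and inner rings of beta subunits (PSMB genes), and a few of the beta subunits cut the substrate. The 19S cap binds ubiquitin and unfolds substrates: its base holds the ATPases of the PSMC genes and scaffold proteins, and its lid holds further PSMD subunits around a deubiquitinating enzyme. The PSME genes encode other activators that dock on the same barrel.

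Some listed windows lie at the 5′ end of a transcript, where the RefSeq promoter table (GRCh38.p14) gives their bases. They are shown because the first bases of many mRNAs of the translation machinery are a run of pyrimidines. These are some of the proteasome windows at or near the RefSeq start. A PSMC6 window that begins 31 bases after it, for example, is not printed. Each stretch is read 5′ to 3′ and holds at most 30 bases of the window, with its longest run of C or T in capitals.
PSMB4, whole window chr1:151399560-151399572, + strand: tttcaTTTTTTCT
PSMA4, first part of a 5′ UTR window, chr15:78540472-78540493, + strand: tggtggtttaTTCTTCCgtgga
PSMA2, whole 5′ UTR window chr7:42932159-42932185, − strand: ggctgtgctttggCTCTTCgggtaaag
PSMB3, first part of a 5′ UTR window, chr17:38752741-38752770, + strand: agcagtgagagcggTTgcgcagtgaaggct
PSME3, first part of a 5′ UTR window, chr17:42833397-42833426, + strand: gcagTTTCCggcgtgagcggcgaaagccgg
PSMD10, whole 5′ UTR window chrX:108091521-108091542, − strand: aagtagTTgctgggacagcgaa

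The PSMB4 window is 13 bases long and ends at the base before the RefSeq start of the gene, so its bases are not the first bases of the RefSeq transcript. The stretches of PSMB3, PSME3 and PSMD10 begin at the RefSeq start. That of PSMA2 begins 11 bases before it, and that of PSMA4 begins 28 bases after it, so the run of C and T in PSMA4 is not at the 5′ end. Of the 13 PSMB4 bases 12 are pyrimidines, and the longest run is 8. A run of C or T of at least 8 bases in the 13 bases before the start was found in 5.76% of 35116 RefSeq promoter entries on the gene's strand. Both lengths are those of the PSMB4 window, which has the longest run of the stretches printed, so this share is a description and not a test. The windows of PSMB4 and PSMA4 were listed in all 3 groups, those of PSMA2, PSMB3 and PSME3 in R101H and R62W, and that of PSMD10 in R101H. A stretch is a description of the window and says nothing about what was bound there.

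The table also covers the start of 3 start codon windows, shown with the start codon in capitals.
PSMD10, first part of the window, chrX:108091493-108091520, − strand: ATGgaggggtgtgtgtctaacctaatgg
PSMA2, first part of the window, chr7:42932129-42932158, − strand: ATGgcggagcgcgggtacagcttttcgctg
PSMC4, first part of the window, chr19:39971203-39971214, + strand: ATGgaggagata
The PSMD10 window was listed with a mean log2 odds ratio of 1.15 in R62W and 1.20 in WT, the PSMA2 window with 1.79 in R62W, and the PSMC4 window with 1.27 in R101H and 0.98 in R62W.

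Proteasome mRNAs were recovered with all 3 proteins, over far more windows with the substitutions than with WT. Windows of 38 of the 40 genes were listed in R101H, of 38 in R62W and of 22 in WT, which is 95%, 95% and 55% of the 40. Over all 8697 genes the shares were 93.5%, 89.5% and 38.0%. The number of proteasome windows was 5.66 times higher in R101H and 6.04 times higher in R62W than in WT, beside 6.06 and 5.62 times for all windows. With the R101H and R62W lists cut by q to the length of the WT list, 34, 37 and 56 proteasome windows were left in R101H, R62W and WT. The WT list stayed whole, with q up to 0.20, while the others kept only their lowest q, so this cut does not compare the groups at equal strictness. At a highest q of at most 0.05 in every list, the counts were 123, 63 and 4, beside 43148, 22616 and 2987 of all windows. This cut is not equally strict either, since it is harder to meet where 3 replicates passed, which R101H windows cannot have. The proteasome made up 0.340% of the R101H list (95% Clopper-Pearson interval 0.303 to 0.379), 0.390% of the R62W list (0.350 to 0.434) and 0.364% of the WT list (0.275 to 0.472). These intervals overlap and cover counting error only. With 1 list per group, list lengths and shares have no test between groups.

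**Figure D1:**
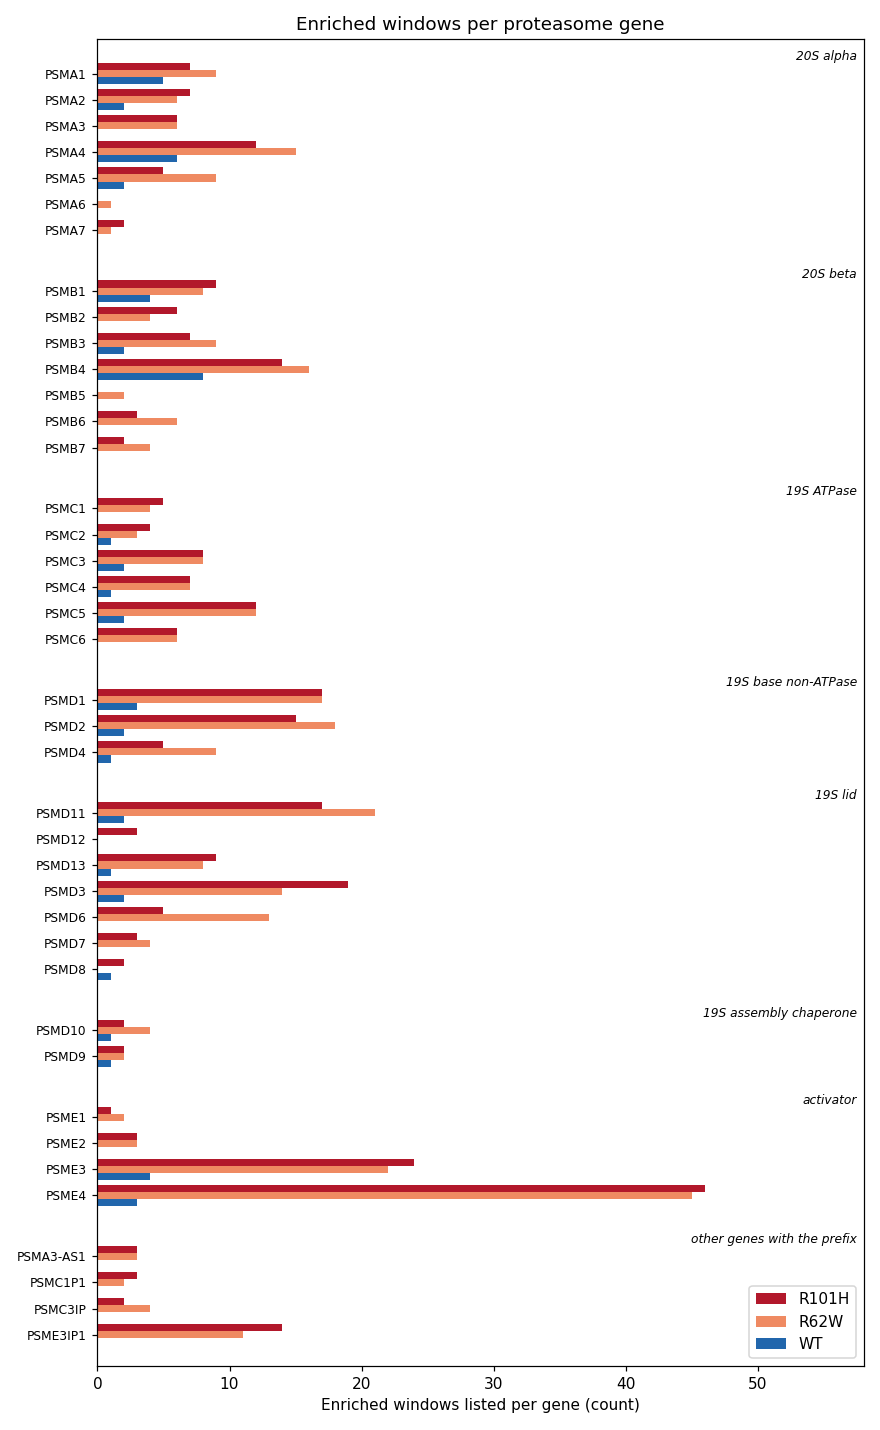
Number of enriched windows listed for each of the 40 genes (count on the x axis), with bars for R101H, R62W and WT, by place in the complex. PSME4 has 46 and 45 windows in R101H and R62W and 3 in WT, and PSMB4 has the most windows in WT, 8.

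Of the 178 windows in the lists of both substitutions but not in that of WT, none has a WT value, since a window outside a list is not a measured 0. A further 42 windows were in all 3 lists, 94 in R101H alone, 109 in R62W alone and 2 in WT alone. In addition, 3 were in R101H and WT and 9 in R62W and WT. The study has 1 set of inputs, and which of them each list used is not stated. Where R62W and WT windows passed in 3 replicates each, the summed input counts were identical in 79.7% of 2672 windows. At 2 passing replicates each, they were identical in 42.0% of windows of R101H and R62W, with a ratio of 1.10, and in 17.3% of windows of R101H and WT, with a ratio of 1.09. Because inputs may be shared, the lists are set side by side here and their overlap is given no weight.

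The alpha subunits form the outer rings of the core, which gate entry to it. They had 39 windows in R101H, 47 in R62W and 15 in WT, with median log2 odds ratios of 1.61, 1.51 and 1.66. PSMA1 had 7, 9 and 5 windows, PSMA2 had 7, 6 and 2, PSMA4 had 12, 15 and 6, and PSMA5 had 5, 9 and 2. The lists of the substitutions also held PSMA3 and PSMA7, with 6 and 2 windows in R101H and 6 and 1 in R62W, and that of R62W held 1 window of PSMA6. The PSMA2 and PSMA6 windows include some shared with an overlapping second gene, and reads of the 2 genes cannot be told apart there. PSMA8, a testis form of an alpha subunit, had no row in the lists used here.

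PSMA4 held the window with the largest difference between R101H and WT among the 42 in all 3 lists. It lies in an intron near a 5′ splice site (chr15:78540940-78541039, GRCh38). Its log2 odds ratio was 2.80 and 2.98 in the R101H replicates, 1.83, 1.89 and 1.97 in the R62W replicates, and 1.69 and 1.85 in the 2 WT replicates in which it passed. Both R101H values lay above every value of the other groups, and the values of R62W and WT overlapped. The difference of R101H minus WT was 1.12 (limma adjusted p = 0.198), and that of R101H minus R62W was 0.99 (limma adjusted p = 1.00). The pooled input counts behind it were 7 in R101H, 13 in R62W and 9 in WT. Here and below, 2 values for R62W or WT mean that a replicate did not pass and that its value is not given. Statements of order between groups cover passing replicates only. They are to be read beside the median difference over all windows in both lists. That median was 0.60 for R101H minus WT, 0.26 for R62W minus WT and 0.21 for R101H minus R62W.

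Other PSMA4 windows differed less. Its 5′ UTR window, part of which is printed above, had values of 1.00 and 1.68 in R101H, 0.79, 0.99 and 1.35 in R62W, and 0.82 and 0.88 in WT. R62W overlapped both other groups there, and R101H lay above WT, at mean values of 1.34, 1.05 and 0.85. A coding window (chr15:78545634-78545698), which passed in every replicate of each group, had 1.86 and 1.92 in R101H, 1.06, 1.56 and 1.82 in R62W, and 1.34, 1.60 and 1.68 in WT. R101H lay above both other groups in this window, while R62W and WT overlapped. The difference of R101H minus WT was 0.35, under the 0.60 of all windows.

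The other alpha subunits gave windows with and without overlap between the groups. The stop codon window of PSMA2 (chr7:42917574-42917673) had 1.92 and 2.98 in R101H, 1.28, 2.77 and 3.43 in R62W, and 2.82 and 2.88 in WT. For PSMA1, a coding window (chr11:14518997-14519041) had 2.39 and 2.77 in R101H, 2.09 and 2.12 in R62W, and 1.42 and 2.26 in WT. Here R101H was above the other groups. A coding window of PSMA5 (chr1:109409928-109410014) had 0.92 and 1.37 in R101H, 0.93, 1.37 and 1.52 in R62W, and 1.08 and 1.19 in WT, with no order among the groups. The highest alpha window in R101H was in the 3′ UTR of PSMA3, at 3.39 in R101H and 2.95 in R62W, on 3 input counts in each.

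The beta subunits had 41 windows in R101H, 49 in R62W and 14 in WT, with medians of 1.60, 1.43 and 1.90. All WT windows of this class were in PSMB1, PSMB3 and PSMB4, which encode subunits of the inner ring that do not cut substrate. The genes of the cutting subunits had windows in the substitution lists only. PSMB6 (caspase-like site) had 3 windows in R101H and 6 in R62W, PSMB7 (trypsin-like site) had 2 and 4, and PSMB5 (chymotrypsin-like site) had none and 2, with none of the 3 genes in the WT list. PSMB2, another subunit without a cutting site, had 6 windows in R101H, 4 in R62W and 0 in WT, so the lists do not split the class by cutting site. The immunoproteasome and thymoproteasome genes PSMB8, PSMB9, PSMB10 and PSMB11, which replace the cutting subunits in immune cells and thymus, had no row in the lists used here.

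PSMB4 stood out among the WT windows, with 8 of the 56 (14.3%), beside 14 windows in R101H and 16 in R62W. It also held the highest window of the set in both substitutions. That window (chr1:151401356-151401448) had 4.89 and 5.10 in R101H and 4.88 and 5.38 in the 2 passing R62W replicates, on 31 and 34 IP counts and 0 input counts in each, and it was not in the WT list. A second window (chr1:151400846-151400943) had 3.04 and 5.98 in R101H, 2.32, 4.39 and 5.98 in R62W, and 4.03 and 4.83 in WT. The WT values lay within the ranges of both substitutions, on 4, 5 and 1 input counts.

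**Figure D2:**
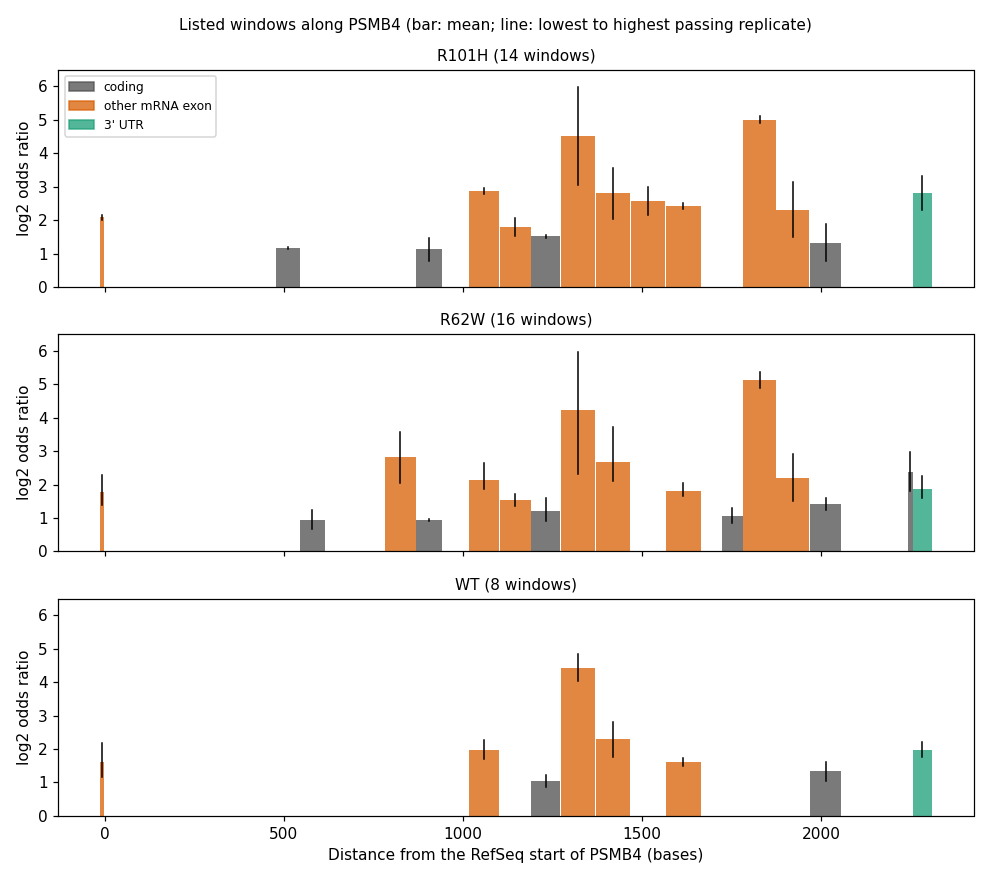
Log2 odds ratio (y axis) of each listed PSMB4 window by distance in bases from the RefSeq start (x axis), with 1 panel each for R101H, R62W and WT; bars give means, vertical lines the lowest to the highest passing replicate, and colour the annotation. The tallest bars, 5.0 in R101H and 5.13 in R62W, are mRNA exon windows outside annotated coding sequence.

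The PSMB4 windows split by annotation. Windows that the deposited annotation places in an mRNA exon, but in neither coding sequence nor UTR, numbered 9 in R101H, 9 in R62W and 5 in WT, with medians of 2.56, 2.21 and 1.98. Of the 10 such PSMB4 windows in any list, 9 are also annotated as intron of another transcript. Coding windows of the gene had medians of 1.25 over 4 windows in R101H, 1.14 over 6 in R62W and 1.19 over 2 in WT. The median input count was 9, 11 and 16 in the exon windows and 70.5, 55.5 and 64 in the coding windows. Among all 40 genes only 14 windows carry this annotation, so PSMB4 holds most of them.

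The 13-base window at the start of PSMB4 was the one among its exon windows with the most input counts. It held 252 IP counts over 93 input counts in R101H, 269 over 132 in R62W and 248 over 132 in WT. Its log2 odds ratio was 2.01 and 2.15 in R101H, 1.40, 1.63 and 2.30 in R62W, and 1.15, 1.49 and 2.17 in WT. It passed in every replicate of every group, and all 3 groups overlapped. Its GC content, 15.4%, was far under the median of proteasome windows, which was 45.0% in R101H, 45.5% in R62W and 44.2% in WT.

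Other PSMB4 windows were higher in R101H than in both other groups. One (chr1:151400589-151400675) had 2.79 and 2.95 in R101H, 1.86, 1.89 and 2.65 in R62W, and 1.69 and 2.26 in WT. In another (chr1:151401140-151401238) the values were 2.32 and 2.50 in R101H, 1.67, 1.72 and 2.04 in R62W, and 1.49 and 1.72 in WT. The 3′ UTR window (chr1:151401830-151401883) had 2.30 and 3.31 in R101H, 1.61, 1.71 and 2.27 in R62W, and 1.77, 1.91 and 2.21 in WT. For R101H minus WT the 3 differences were 0.89, 0.81 and 0.84, and 0.29, 0.21 and 0.24 when centred on all windows. None of the differences passed an adjusted p of 0.05 by limma. Such an order was common over all windows that passed in every replicate of both groups. There R101H lay wholly above WT in 55.5% and wholly above R62W in 19.2%.

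PSMB1 and PSMB3 had 9 and 7 windows in R101H, 8 and 9 in R62W, and 4 and 2 in WT. In PSMB1, the coding window chr6:170535320-170535405 had 1.43 in both R101H replicates, 0.91, 1.01 and 1.16 in R62W, and 0.84 and 1.13 in WT. R101H was higher there, and R62W and WT overlapped. The difference of R101H minus WT was 0.44, and -0.16 when centred on the median of all windows. In the 3′ UTR window of PSMB1 (chr6:170535120-170535219) the order was different, with 1.74 and 2.65 in R101H, 2.73 and 3.17 in R62W, and 2.14 and 3.05 in WT. The PSMB1 window that starts at chr6:170537287 had a lower mean in R101H than in WT. Its difference was -0.81 for R101H minus WT and -0.19 for R62W minus WT. A coding window of PSMB3 (chr17:38760520-38760608) had 1.30 and 2.46 in R101H, 1.31, 1.43 and 1.70 in R62W, and 1.90 and 2.20 in WT, so that WT lay above R62W and within the range of R101H.

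The ATPases of the base unfold substrates and thread them into the core. They had 42 windows in R101H, 40 in R62W and 6 in WT, with medians of 1.61, 1.57 and 1.29. PSMC5 had the most, with 12, 12 and 2, followed by PSMC3 with 8, 8 and 2 and PSMC4 with 7, 7 and 1. PSMC2 had 4, 3 and 1, PSMC6 had 6, 6 and 0, and PSMC1 had 5, 4 and 0. All 6 WT windows of the class were coding.

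A coding window of PSMC5 (chr17:63831327-63831425) was the only proteasome window with an unadjusted limma p under 0.05 for R62W minus WT. It had 1.02 and 2.22 in R101H, 2.27 and 2.28 in R62W, and 1.22 and 1.38 in WT. The passing R62W values were above the passing WT values, and R101H spanned the space between them. In R62W and in WT a replicate did not pass, and its value is not given. The difference of R62W minus WT was 0.98 (limma adjusted p = 0.452). The PSMC3 coding window chr11:47422902-47422973 had 1.90 and 1.91 in R101H, 1.50 and 2.00 in R62W, and 1.10 and 1.73 in WT. Here R101H was above WT and inside the range of R62W. The difference of R101H minus WT was 0.49, under the 0.60 of all windows. The single WT windows of PSMC4 and PSMC2 had means of 1.23 and 1.62, and the PSMC2 window was in no other list.

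The scaffold and ubiquitin receptor subunits of the base, PSMD1, PSMD2 and PSMD4, had 37 windows in R101H, 44 in R62W and 6 in WT, with medians of 1.80, 1.65 and 1.75. PSMD1 had 17, 17 and 3 windows, PSMD2 had 15, 18 and 2, and PSMD4, a receptor for ubiquitin chains, had 5, 9 and 1. A coding window of PSMD1 (chr2:231087117-231087181) was lower in R101H, at 1.72 and 1.94, than in WT, at 2.19 and 3.50, while R62W had 1.86 and 3.21, on 10, 4 and 4 input counts. In a coding window of PSMD4 (chr1:151267173-151267243) the order was the opposite, with 1.65 and 1.94 in R101H, 1.58 and 1.87 in R62W, and 0.87, 1.36 and 1.59 in WT. The WT range ended just under the R101H range and touched that of R62W. PSMD2 held the second highest window of the R101H list within the proteasome, next to a 5′ splice site in an intron (chr3:184301659-184301746), with 4.54 in both replicates on 20 IP and 0 input counts.

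The lid subunits had 58 windows in R101H, 60 in R62W and 6 in WT, with medians of 1.58, 1.53 and 1.38. PSMD3 had 19, 14 and 2 windows, PSMD11 had 17, 21 and 2, PSMD13 had 9, 8 and 1, and PSMD8 had 2, 0 and 1. The lists of the substitutions also held PSMD6, with 5 windows in R101H and 13 in R62W, and PSMD7, with 3 and 4, while PSMD12 had 3 windows in R101H alone. PSMD14, the deubiquitinating enzyme of the lid and the partner of PSMD7, had no row in the lists used here.

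Shared lid windows gave no single order. A 3′ UTR window of PSMD11 (chr17:32481528-32481626) had 1.37 and 1.96 in R101H, 1.15 and 1.29 in R62W, and 1.05 and 1.31 in WT, so that R101H was the higher group. Its difference of R101H minus WT was 0.48, under the 0.60 of all windows. A coding window of PSMD13 (chr11:251546-251626), which passed in every replicate, had 0.83 and 1.97 in R101H, 0.81, 1.02 and 1.47 in R62W, and 1.19, 1.32 and 1.47 in WT. The 3 groups overlapped. In PSMD3, a coding window (chr17:39995236-39995295) had 1.28 and 2.57 in R101H, 2.21 and 2.57 in R62W, and 1.26 and 2.29 in WT, and the start codon window of PSMD8 (chr19:38376420-38376454) had 0.86 and 1.91 in R101H and 1.34 and 1.45 in WT.

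Of the genes for chaperones that assemble the base, PSMD10 had 2, 4 and 1 windows in R101H, R62W and WT, and PSMD9 had 2, 2 and 1. The chaperone gene PSMD5 had no row in the lists used here. The WT window of PSMD9 was intronic (chr12:121902121-121902216) and in no other list, with 2.92 and 3.41 on 19 IP and 2 input counts. The start codon window of PSMD10 shown above had 1.05 and 1.26 in R62W and 1.01 and 1.40 in WT, with no separation.

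The activator genes had 74 windows in R101H, 72 in R62W and 7 in WT, the most of any class in the substitution lists, with medians of 1.96, 1.92 and 1.46. PSME4, which encodes the large single-chain activator PA200, had 46, 45 and 3 windows, and 39, 37 and 3 of them were coding. They covered 3482 bases in R101H, 3457 in R62W and 242 in WT. The number of windows a gene can have grows with the length of its transcript, so counts do not rank genes by recovery. PSME3, the nuclear activator PA28 gamma, had 24, 22 and 4 windows, of which 14, 10 and 1 lay in its 3′ UTR. PSME1 and PSME2, the subunits of the interferon-inducible activator, had 1 and 3 windows in R101H, 2 and 3 in R62W and none in WT.

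PSME3 had 18 windows in both substitution lists, and 15 of them were higher in R101H than in R62W, with a median difference of 0.46. Of all windows in both lists, 71.8% were higher in R101H, with a median of 0.21. The PSME3 windows share a transcript, and no test was made across them. The 3′ UTR window of PSME3 in all 3 lists (chr17:42842967-42843065) had 1.31 and 2.31 in R101H, 0.77, 1.16 and 1.47 in R62W, and 0.94 and 1.20 in WT. R101H was above WT and overlapped R62W. A coding window (chr17:42839112-42839166) had 1.55 and 2.32 in R101H, 1.58 and 1.96 in R62W, and 1.17 and 1.44 in WT, so that both substitutions were above WT. For PSME4, a coding window (chr2:53931923-53932011) had 2.07 and 2.84 in R101H, 1.48, 2.16 and 2.37 in R62W, and 1.98 and 2.28 in WT, and the groups overlapped. Of the 3 PSME4 windows in the R101H and WT lists, 2 were higher and 1 lower in R101H. The lower one had a difference of -1.08, the lowest of the 45 proteasome windows in both lists. Another PSME4 coding window (chr2:53869376-53869456) had 2.55 and 3.22 in R101H and 1.56, 1.59 and 2.34 in R62W, a difference of 1.05 (limma adjusted p = 1.00), and was not in the WT list.

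**Figure D3:**
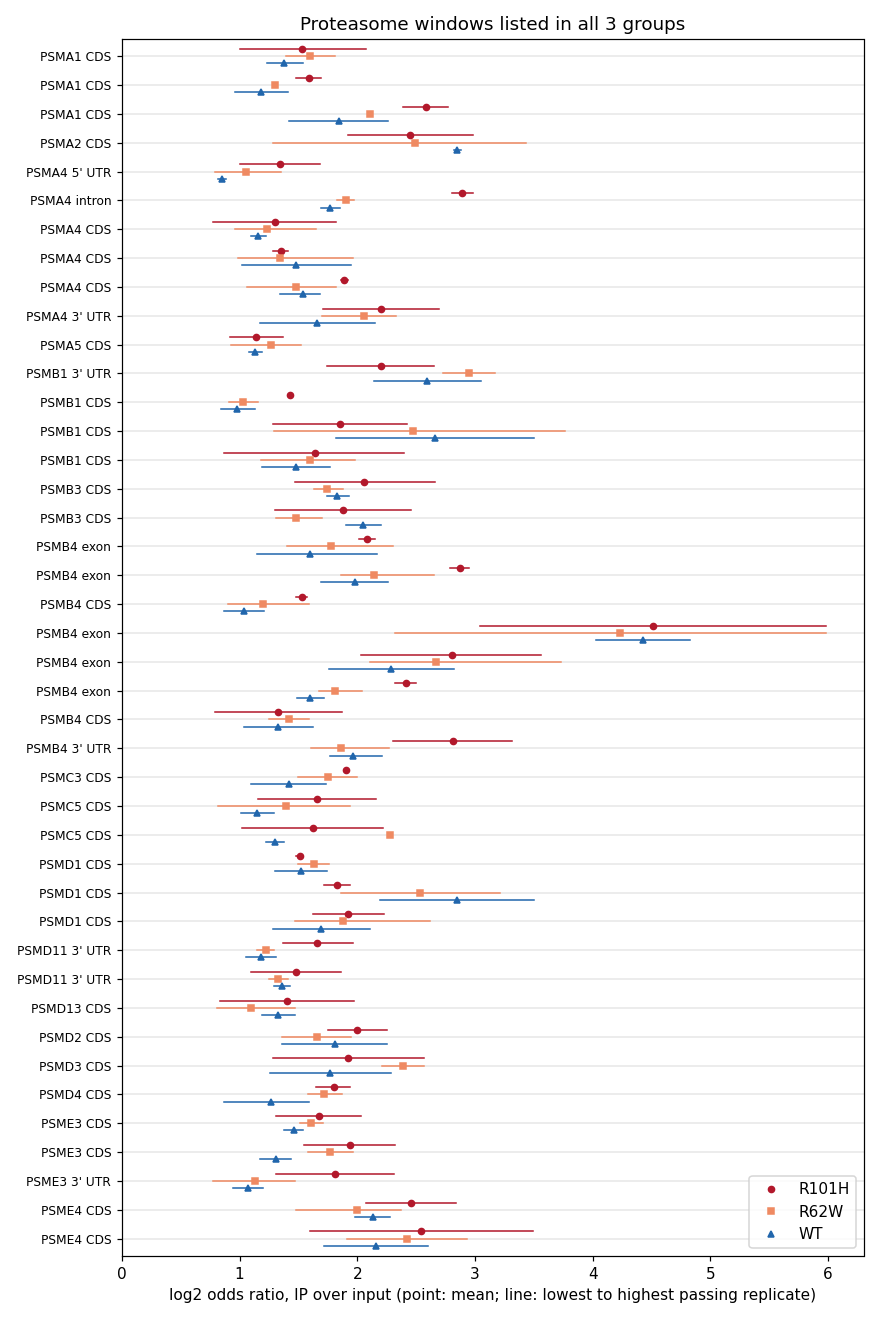
Log2 odds ratio of IP over input (x axis) of the 42 proteasome windows listed in all 3 groups, 1 row per window, with the mean as a point and the lowest to highest passing replicate as a line for R101H, R62W and WT. R101H has the highest mean in 30 rows, R62W in 7 and WT in 5. Over all windows in both lists, R101H was higher than WT in 82.5% and higher than R62W in 71.8%. The share with R101H highest of the 3 groups was not counted over all windows.

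Not every gene with the prefix encodes a subunit. PSME3IP1 encodes a protein that binds the PSME3 activator, and PSMC3IP a protein of meiotic recombination. PSMC1P1 is a pseudogene of PSMC1, so its reads may belong to PSMC1, and PSMA3-AS1 is an antisense transcript at the PSMA3 locus. Together these 4 genes had 22 windows in R101H, 20 in R62W and none in WT. PSME3IP1 had 14 in R101H and 11 in R62W, and its highest window, in the 3′ UTR (chr16:57152946-57153041), had 3.61 and 5.36 in R101H on 1 input count. PSMC3IP had 2 and 4 windows, PSMC1P1 had 3 and 2, and PSMA3-AS1 had 3 and 3.

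Proteasome windows had lower medians than all windows in each list. The median log2 odds ratio of proteasome windows was 1.79 in R101H, where all windows had 2.00, 1.65 in R62W, where all had 1.90, and 1.60 in WT, where all had 2.03. The middle 50% of proteasome windows lay between 1.36 and 2.16 in R101H, 1.33 and 2.05 in R62W, and 1.30 and 1.98 in WT. Their pooled input counts were higher, with medians of 17, 18 and 21 in proteasome windows and 11, 12 and 11 in all windows, while the IP counts had medians of 51, 48.5 and 52 and of 48, 47 and 49. Among windows with at least 10 input counts the medians were 1.54 for the proteasome and 1.66 for all in R101H, 1.49 and 1.61 in R62W, and 1.44 and 1.60 in WT. Among windows with fewer input counts they were 2.43 and 2.46 in R101H, 2.28 and 2.36 in R62W, and 2.61 and 2.70 in WT. The part of input depth in the lower medians was not tested beyond these values. Windows of a gene share its transcript, so no test was made across windows.

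The share of proteasome windows that passed in every replicate lay under that of all windows; the difference was not tested. In R62W 128 of 338 (37.9%) did so, against 44.5% of all windows, and in WT 5 of 56 (8.93%), against 22.8%. The R101H list needs both replicates by construction. At a highest q of at most 0.05, 123 windows (38.8%) stayed in R101H, 63 (18.6%) in R62W and 4 (7.14%) in WT, against 46.2%, 26.1% and 19.4% of all windows. The 5 WT windows that passed in every replicate were the PSMB4 start window, the PSMB4 3′ UTR window and the coding windows of PSMA4, PSMD4 and PSMD13 given above. The number of passing replicates was 2 for all R101H windows and 2 or 3 in the other lists, so a share of windows by q is stricter where 3 replicates passed.

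Most proteasome windows were coding in each group. Coding windows, start and stop codon windows included, made up 71.0% of the proteasome windows in R101H (95% interval 65.6 to 75.9), 74.3% in R62W (69.3 to 78.8) and 75.0% in WT (61.6 to 85.6). Over all windows the shares were 53.7%, 53.2% and 35.8%. Windows in 3′ UTRs made up 18.0%, 16.6% and 10.7% of proteasome windows, against 26.3%, 23.2% and 21.4% of all. The intron share differed most in WT, where 2 of 56 proteasome windows (3.57%, interval 0.435 to 12.3) were intronic and 31.4% of all windows were. In R101H and R62W it was 3.47% and 2.66% of proteasome windows, against 10.7% and 13.5% of all. These intervals treat windows as independent, cover counting error only and do not test proteasome windows against all windows.

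**Figure D4:**
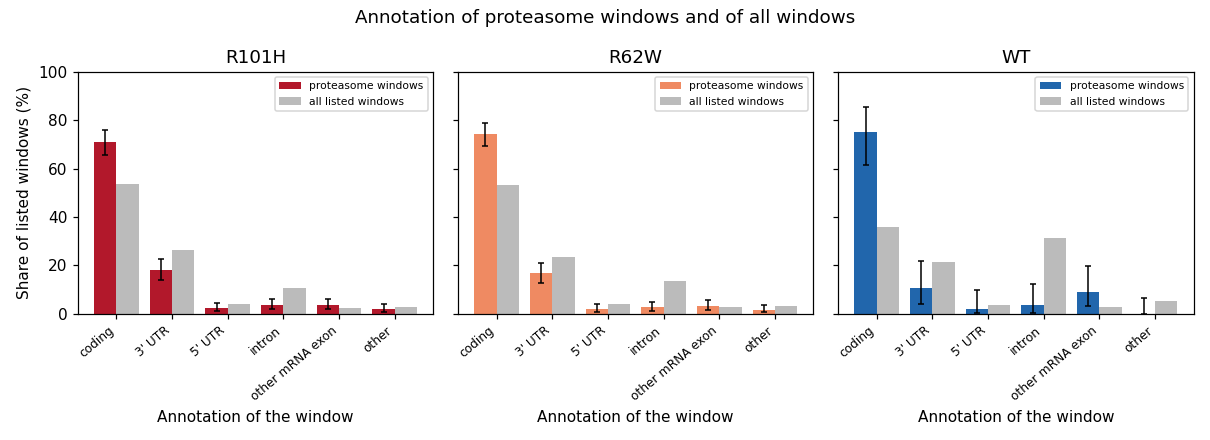
Share of listed windows (y axis, percent) by annotation (x axis) in R101H, R62W and WT, with coloured bars for proteasome windows and grey bars for all listed windows; error bars are 95% Clopper-Pearson intervals of counting error. Coding windows are 71.0%, 74.3% and 75.0% of proteasome windows, and intron windows are under 4% in each group.

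Within coding sequence, stop codon windows made up 5.99% of proteasome windows in R101H, 6.51% in R62W and 3.57% in WT, against 2.91%, 2.91% and 2.65% of all. Start codon windows made up 2.21%, 3.55% and 5.36%, against 1.72%, 1.72% and 1.26%. By number these are 19, 22 and 2 stop codon windows and 7, 12 and 3 start codon windows. The medians of start codon windows, 1.41, 1.29 and 1.23, were under those of interior coding windows, 1.68, 1.62 and 1.52. The 5′ UTR windows had the lowest medians, 1.34 over 7 windows in R101H, 1.15 over 6 in R62W and 0.85 for the single WT window.

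Direct comparison between groups was possible only for windows in both lists. For R101H minus WT, 45 proteasome windows could be compared, and the median difference was 0.23, with 35 higher and 10 lower in R101H. All 11082 windows had a median of 0.60, so that, centred on it, the proteasome median turned to -0.37 and 7 of the 45 were higher. For R62W minus WT, 51 proteasome windows had a median of 0.12, with 33 higher and 18 lower, which turned to -0.15 when centred on the 0.26 of all 12263 windows. For R101H minus R62W, 220 proteasome windows had a median of 0.13, with 152 higher and 68 lower, which turned to -0.08 when centred on the 0.21 of all 59874 windows. The comparisons with WT share the WT samples, those with R101H share the R101H samples, and inputs may be shared by all.

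No proteasome window passed an adjusted p of 0.05 in any pair of groups by limma with Benjamini-Hochberg adjustment over all windows in both lists. Over all windows, too, the share called was 0% in each of the 3 pairs. At an unadjusted p under 0.05, the difference of R101H minus WT was called in 1 of 45 proteasome windows (2.22%), that of R62W minus WT in 1 of 51 (1.96%) and that of R101H minus R62W in 2 of 220 (0.909%). Over all windows the shares at that p were 21.3%, 10.2% and 1.80%. The windows were those of PSMA4, PSMC5, and PSMA4 with PSME4, described above. The median SE of a proteasome difference was 0.49, 0.37 and 0.42 for the 3 pairs, larger than the median differences, so that a p over the threshold does not show equal recovery.

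**Figure D5:**
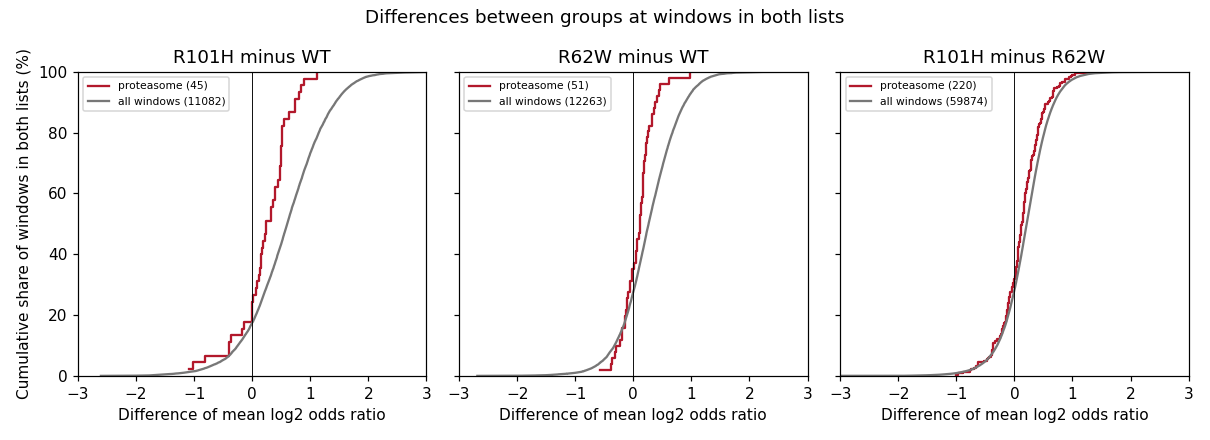
Cumulative share of windows in both lists (y axis, percent) by difference of the mean log2 odds ratio (x axis), for R101H minus WT, R62W minus WT and R101H minus R62W, with proteasome windows in red and all windows in grey. At the median the red curves lie left of the grey ones, at 0.23 beside 0.60, 0.12 beside 0.26 and 0.13 beside 0.21.

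Restricting the comparison to windows that passed in all replicates of both groups left 5 proteasome windows for R101H minus WT and 4 for R62W minus WT, and it left 45.9% of the 220 in the comparison of R101H with R62W. None was called, at lowest adjusted p-values of 0.159, 0.602 and 0.94 (limma), where 18.2%, 0.0374% and 0% of all such windows were called. At an unadjusted p under 0.05, 0, 0 and 2 of these proteasome windows were called. In 3 of the 5 windows the R101H values all lay above the WT values, against 55.5% of all such windows, and in 0 of the 4 the R62W values all lay above the WT values, against 31.7%. In 19 windows (18.8%) both R101H values lay above all R62W values, against 19.2% of all such windows, and in 0 they lay below, against 1.03%. The share for the proteasome was thus near that of all windows. The 19 windows lay in 9 genes, with 4 in PSME4, 3 each in PSMA4 and PSMB4, 2 each in PSMB1, PSMD3 and PSME3, and 1 each in PSMB3, PSMC3 and PSMD13, and their differences ranged from 0.17 to 1.05.

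By class, the median difference of R101H minus R62W ran from 0.05 for the scaffold and receptor subunits of the base (22 windows) to 0.17 for the activators (55 windows). It was 0.09 for alpha subunits (31 windows), 0.13 for beta subunits (34), 0.15 for ATPases (25) and 0.15 for lid subunits (36). All of these are under the 0.21 of all windows, so each turns below 0 after centring. Single windows ran from -0.88 to 1.30 over these classes, and no test between classes was made.

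Genes that work with the proteasome but lack the prefix were counted in the same way over a list of 30 symbols, of which 2 (SHFM1 and KIAA0368) are older names of SEM1 and ECPAS in the same list. Of these, 24 had a window in R101H, 28 in R62W and 9 in WT, with 204, 200 and 26 windows. These are 85.7%, 100% and 32.1% of the 28 listed in any group, beside 93.5%, 89.5% and 38.0% over all genes. UBE3C, a ubiquitin ligase that acts at the proteasome, had 48, 46 and 7 windows with medians of 1.87, 1.69 and 1.89. VCP, the segregase that extracts ubiquitinated proteins, had 23, 20 and 8, with medians of 1.50, 1.35 and 1.60. POMP, a chaperone of core assembly, had 4, 6 and 3 windows, ADRM1, a ubiquitin receptor of the cap, had 4, 13 and 2, and ZFAND5 had 15, 14 and 2. SEM1, a small lid subunit, had 4, 4 and 1, and UBQLN2, a shuttle for ubiquitinated proteins, had 8, 6 and 1. ECPAS and UBQLN4 had 24 and 24 windows in R101H, 23 and 21 in R62W and none in WT.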

How the data were processed

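RNA bound by RPS19 was measured by eCLIP in 11 HEK293T samples in 4 groups. Tools named in the submitters' processing notes were STAR and fastp, and the build was GRCh38, with the window caller and tool versions not given in the sources used here. For each IP group the authors deposited 1 window list made from all its replicates, and replicates carry no label in it. Per the file headers, IP and input values are deposited counts per window. From the values, they are summed over the replicates in which the window passed: input sums had a ratio of 1.63 where R62W passed in 3 replicates and WT in 2, and of 1.00 where both passed in 3. The deposited log2 odds ratios of IP over input are the lowest, mean and highest of the passing replicates. The deposited q-values reach 0.20 and at least 2 replicates passed. The deposited fraction of G and C was printed as a percent. Library depth is not given in these lists, so the counts per window limit precision. The separate repeat element tables were not used.

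Replicate values were recovered from lowest, mean and highest (exactly for 2 or 3 values). Windows in both lists were compared with limma 3.58.1 (lmFit, eBayes, R 4.3.3) on log2 values, adjusted over all windows by Benjamini-Hochberg at 0.05; the code was tested on simulated data. Pooled counts allowed no count model. Coordinates are 1-based. All 40 symbols matched RefSeq. Members, gene lists and tests were chosen with earlier results of these data known. Named genes are those with a WT window and those with the most or the highest windows in R101H or R62W. Named windows are some of those in all lists, and those with an unadjusted p under 0.05, the last added after their values were seen. Alternatives were windows passing in every replicate, a q of at most 0.05, lists of equal length, subunit genes alone, at least 10 input counts, centring, pooled counts with a pseudocount of 1, the eBayes trend and 1 value per gene. Single values of some genes outside the prefix are not reported here.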

Additional observations from a re-analysis of the deposited data

How the results depend on the processing

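Counts and shares depended on which windows were kept. At a highest q of at most 0.05, R101H kept 123 proteasome windows, 0.285% of its list. R62W kept 63 in 22 genes, 0.279% and 63.5% coding, and WT kept 4 in 3 genes, 0.134%, 50.0% coding, with a median log2 odds ratio of 2.45. With windows passing in every replicate, R62W had 128, 0.332% of the list, and WT had 5 in 4 genes, 0.142% and 60.0% coding. With all lists cut to the 15402 windows of the shortest, R101H had 34 windows in 13 genes, 0.221% and 47.1% coding. R62W then had 37 in 17 genes, 0.240% and 54.1% coding, with a median of 2.14. At equal length the counts were thus 34 and 37 beside 56 in WT, but the WT list was not cut and kept windows of higher q. At the same q limit of 0.05 the counts were 123 and 63 beside 4, where all windows gave 43148 and 22616 beside 2987. With at least 10 input counts the shares were 0.437%, 0.491% and 0.526% in R101H, R62W and WT, and 76.4% of R101H windows were coding. Counting subunit genes alone moved none of these values beyond the limits set.

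The median difference of R101H minus WT, 0.23, was -0.37 when centred, -0.43 when centred over windows passing in every replicate (added after seeing the data) and -0.40 from pooled counts. That of R62W minus WT, 0.12, was -0.64 and -0.24 under the last 2 of these. The medians over windows passing in every replicate rest on only 5 windows for R101H minus WT and 4 for R62W minus WT. No proteasome window was called under any fit. The cause was not tested. No paired analysis was possible because the deposited values carry no replicate labels, which also barred leaving out each replicate in turn. Overlap at other thresholds was not run, since the lists may share inputs. Low input counts, 0 to 5 in the highest windows, limit those values.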
